A study of Rattus norvegicus with 15 samples.

Results

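Light exposure of rats from dawn to 6 ZT was compared with darkness over the same hours in 6 retinal arrays, 3 named 6 ZT light and 3 named 6 ZT dark, out of 15 arrays in 5 conditions. ZT is zeitgeber time, counted in hours from the usual lights-on at 7 in the morning, so that both groups were collected at clock hour 13. All rats were Long-Evans, a pigmented strain, described in the study's methods as adult males, and all had spent the night in darkness. The 6 ZT light rats were then exposed to light of 1000 lux, and the 6 ZT dark rats stayed in darkness with no other treatment. The titles of the light arrays and the study's text give 6 h of light, while the source field of the same arrays gives 3 h, and the duration in the titles is used here. Each array was hybridised with RNA of retinas, and neither the labels nor the methods for the arrays state how many rats an array pooled. The 3 arrays of a group carry replica numbers 1 to 3, and a light array was set against the dark array of the same number. The members of the comparison were all 31042 non-control probe sets of 31099 on the array, measured as log2 levels. A probe set is a group of short probes for 1 transcript, and a gene with several probe sets is given by the brightest.

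The difference between the 3′ and the 5′ probe sets of beta-actin, a measure of RNA integrity, was 0.708 to 1.09 log2 units in 6 ZT dark and 0.945 to 1.22 in 6 ZT light, against 2.10 and 2.40 on the 2 arrays of the other conditions where it was largest. The median level depended on the replica number, being 8.28 to 8.32 on the arrays of replica 1, 8.58 to 8.68 on those of replica 2 and 8.75 to 8.81 on those of replica 3. A light array and the dark array that shared its number held exactly equal values for 4.44% to 12.7% of probe sets, against 0.0322% to 0.0902% where the numbers differed, and the part of this in the results was not tested. As a check of the tissue, Pde6a, the alpha subunit of the rod phosphodiesterase, was at 12.88 to 13.23 on the 6 arrays. Transcripts known from other eye tissues were measured too, and the lens alpha-crystallin Cryaa was at 12.44 to 15.35. The tissue that these transcripts came from was not tested.

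In the vertebrate retina light is absorbed by rods and cones, and its signal passes through bipolar cells to ganglion cells, with amacrine and horizontal cells acting across the layers. The pigment epithelium behind the photoreceptors regenerates the chromophore of the visual pigments in the visual cycle. Thyroid hormone is also used in the retina: it enters cells through membrane transporters, is activated or inactivated by deiodinases and acts on nuclear receptors that control transcription. Light further acts on the retinal circadian clock and on immediate early genes, which respond to neuronal activity within minutes to hours.

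No probe set passed an adjusted p of 0.05 in limma, either higher or lower in 6 ZT light (0 of 31042, 0%). The lowest adjusted p was 0.118. At an unadjusted p under 0.05, 1726 probe sets were higher in light (5.56%) and 921 were lower (2.97%). These counts were 303 and 38 when the replica numbers were left out of the fit. They also moved by over 1.5 times when single arrays were left out, to 2077 lower without 6 ZT light replica 1, to 981 and 388 without light replica 2, to 1086 and 611 without light replica 3 and to 1125 and 353 without 6 ZT dark replica 2. Without 6 ZT light replica 1 there were 3 adjusted calls, all higher in light, namely Greb1l, Cfap69, which was named after its values were seen, and a probe set without a gene symbol. Weighting the arrays by their estimated quality gave 1511 higher and 800 lower calls, with a weight of 7.45 on 6 ZT light replica 3 and of 0.488 and 0.464 on the other light arrays. Over all probe sets the median log2 difference was −0.01, with 14907 higher and 16102 lower in light. In all 3 pairs the light array was the higher for 5346 probe sets (17.2%) and the lower for 4200 (13.5%). Every difference between light and dark below is therefore given as a measured value that did not pass the adjusted threshold. Where the groups of a gene are said not to overlap, the share of all probe sets without overlap is not given. Such a statement therefore describes the levels of that gene only, and many of these genes were picked for a low p.

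By the fold limits of the study, applied here to the dark array of the same number, 17 probe sets exceeded 1.6 times the dark level in all 3 pairs (0.0548%). They stood for 8 genes, with 8 further probe sets without a single symbol. The genes were Lrat, Etv4, Greb1l, Tc2n, Myh6, Slco1c1, Col11a1 and Slc16a10. Below 0.7 times the dark level in all 3 pairs were 12 probe sets (0.0387%), standing for 11 genes and 1 probe set without a symbol. Of these 11 genes 10 are known lens genes, namely Mip, Lim2, Crybb1, Cryba4, Crygc, Crygs, Crygb, Grifin, Bfsp1 and Crygd. The other was Mis18a, whose protein takes part in centromere assembly. At the edges of the rule, the smallest of the 3 ratios was 1.62 for Slco1c1, just inside, and 1.598 for the next probe set, which had no symbol, just outside. On the low side the ratio nearest to 1 was 0.683 for Mis18a, inside, and 0.705 for Rbfox3, outside. After quantile or cyclic loess normalization the split of 17 to 12 became 14 to 16.

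**Figure D1:**
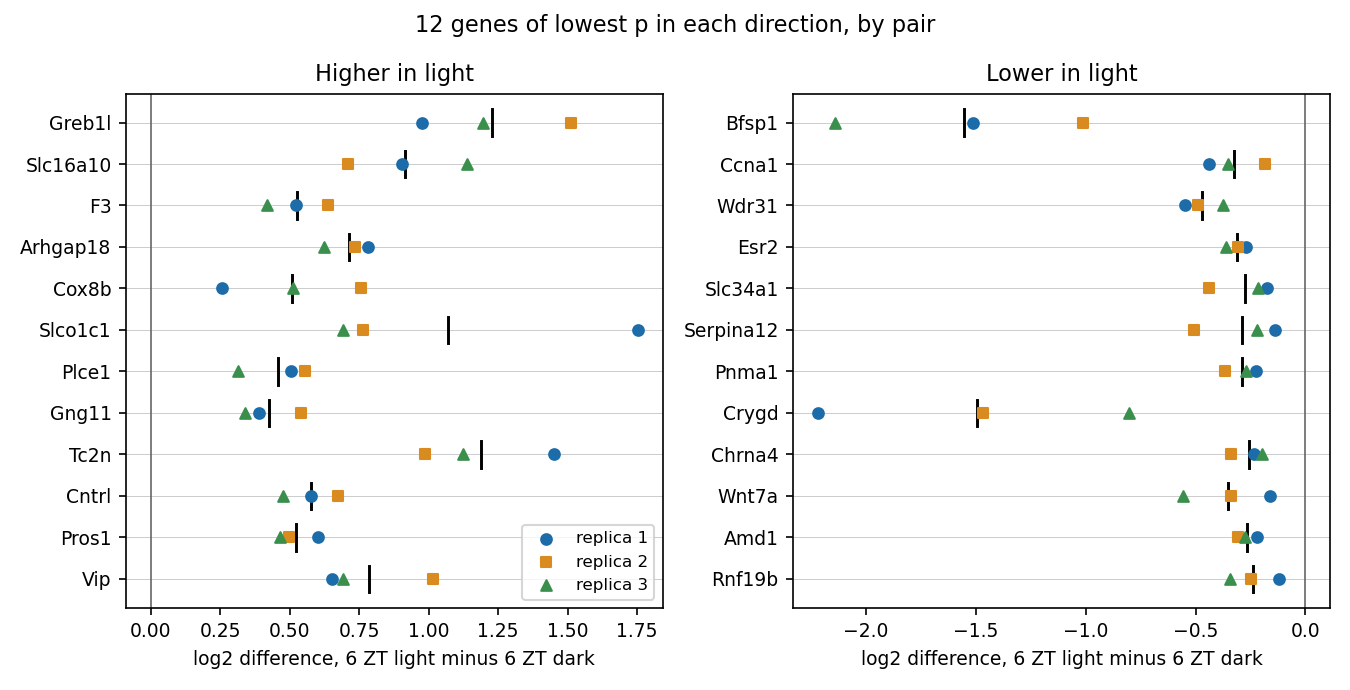
Light minus darkness at 6 ZT on the log2 scale (horizontal axis) is plotted for the 12 genes of lowest p in each direction, with 1 symbol per replica pair and a black bar at the fitted difference. Greb1l lies between 0.98 and 1.51 in the 3 pairs, and Bfsp1 between −2.14 and −1.01.

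The transporters of thyroid hormone were among the genes highest in 6 ZT light relative to darkness. Slc16a10 encodes a membrane carrier of aromatic amino acids and thyroid hormones. Its log2 level was 6.52, 6.61 and 7.02 on the dark arrays of replicas 1 to 3 and 7.43, 7.32 and 8.16 on the light arrays. All 3 light arrays lay above all 3 dark arrays. The ratio of light to dark was 1.90 ± 0.285 (SD, n = 3), and the fitted log2 difference was 0.92 ± 0.12 (SE; limma, adjusted p = 0.118). In the other conditions its mean was 6.93 at 0 ZT dark, 6.83 at 3 ZT dark and 6.95 at 3 ZT light, so that 6 ZT light, with a mean of 7.64, was the highest of the 5 conditions.

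Slco1c1, an organic anion transporter with high affinity for thyroxine, was at 8.60, 9.51 and 9.62 in darkness and at 10.35, 10.28 and 10.31 in light. The groups did not overlap, and the dark arrays were spread over about 1 log2 unit while the light arrays lay close together. The ratio was 2.23 ± 0.991 (SD, n = 3), with 3.37 in pair 1 and 1.70 and 1.62 in the others, and the fitted difference was 1.07 ± 0.21 (SE; limma, adjusted p = 0.440). Slco1c1 is also known from endothelial cells of the blood-brain barrier. Of the 15 measured genes of a list for blood and vessels, 9 were higher and 6 lower in light with a median of 0.03 in the fit and of −0.08, 0.24 and 0.02 in pairs 1 to 3.

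The deiodinases varied more between pairs. Dio2, which converts thyroxine to the active hormone, was at 5.83, 6.80 and 7.56 in darkness and at 5.87, 7.33 and 8.99 in light. The ratio was 1.03 in pair 1, 1.45 in pair 2 and 2.69 in pair 3, with a mean of 1.72 ± 0.865 (SD, n = 3). The groups overlapped, the replicas differed among themselves by more than light and dark, and the fitted difference was 0.67 ± 0.38 (SE; limma, adjusted p = 0.630). Dio3, which inactivates the hormone, had ratios of 3.69, 0.444 and 1.71, so that pair 2 ran opposite to the other pairs.

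Nuclear receptors and cofactors of the hormone differed little. Thrb, the beta receptor, was at 12.62, 12.86 and 12.98 in darkness and at 12.77, 13.07 and 13.19 in light, with a fitted difference of 0.19 ± 0.13 (SE). Thra, the alpha receptor, had a fitted difference of −0.27 ± 0.17 (SE), with −0.67 in pair 2 and −0.08 and −0.06 in the others. Both receptors were picked for their role after their values were seen. The acetyltransferases Ep300 and Crebbp, coactivators shared by many transcription factors, had ratios of 1.14 ± 0.0550 and 1.14 ± 0.0285 (SD, n = 3), and the other 4 probe sets of Crebbp gave log2 differences of 0.62, 0.21, −0.31 and −0.25. Klf9, a transcription factor induced by thyroid hormone in brain, was at 13.17, 13.07 and 12.99 in darkness and at 13.33, 13.32 and 13.40 in light. Its groups did not overlap and its ratio was 1.21 ± 0.106, while its other probe sets, which are dimmer, gave −0.33 and −0.15. The plasma carrier of the hormone, transthyretin (Ttr), which the pigment epithelium also makes, had a ratio of 1.42 ± 0.331. Over the 22 measured genes of the thyroid hormone list, 16 were higher and 6 lower in light with a median of 0.13, 4 were higher at an unadjusted p under 0.05 (background 5.56%), and 10 were higher in all 3 pairs (background 17.2%). After quantile normalization the split was 14 higher and 8 lower, and after cyclic loess normalization it was again 16 and 6.

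**Figure D2:**
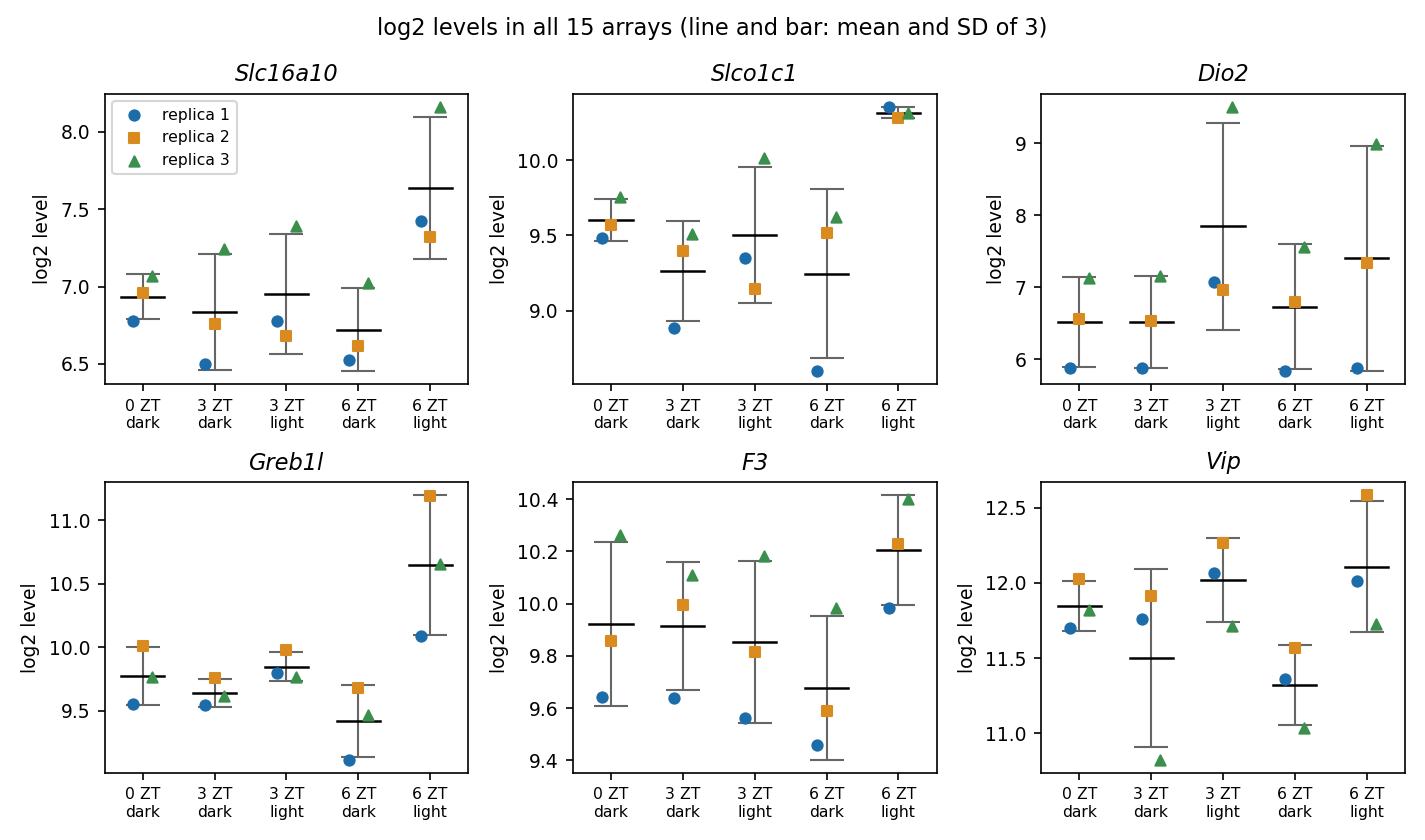
The log2 level (vertical axis) of 6 genes is plotted on all 15 arrays by condition, with 1 symbol per replica, a line at the mean and a bar for the SD of 3 arrays. Slc16a10, Slco1c1 and Greb1l are highest in 6 ZT light, whereas Dio2 has its highest mean, 7.85, in 3 ZT light.

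The lowest p of all named genes belonged to Greb1l, which encodes a coactivator that in mouse is needed for kidney and inner ear development. Its brighter probe set was at 9.11, 9.68 and 9.46 in darkness and at 10.09, 11.19 and 10.66 in light, without overlap. The ratio was 2.37 ± 0.448 (SD, n = 3) and the fitted difference 1.23 ± 0.15 (SE; limma, adjusted p = 0.118). A dimmer probe set of the gene gave a ratio of 2.61 ± 1.16. The other 4 conditions lay between 9.42 and 9.85 on average. F3, tissue factor, which starts blood coagulation, was at 9.46, 9.59 and 9.98 in darkness and at 9.98, 10.23 and 10.40 in light. Here the groups touched at 9.98, where dark replica 3 met light replica 1, while every pair was higher in light and the ratio was 1.44 ± 0.111 (limma, adjusted p = 0.118). Pros1, protein S, an anticoagulant that is also a ligand of the receptor by which pigment epithelium takes up outer segments, had a ratio of 1.44 ± 0.0722.

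Vip, the vasoactive intestinal peptide of a class of amacrine cells, was at 11.36, 11.57 and 11.04 in darkness and at 12.01, 12.58 and 11.73 in light. The light arrays were all above the dark arrays, the ratio was 1.74 ± 0.249 (SD, n = 3) and the fitted difference 0.79 ± 0.16 (SE; limma, adjusted p = 0.440). The amacrine cell list, which holds Vip, was mixed. Of 22 measured, 8 were higher and 14 lower with a median of −0.08, and the vesicular acetylcholine transporter Slc18a3 of starburst cells had a ratio of 0.696 ± 0.184. Slc6a3, the dopamine transporter, was at 0.877 ± 0.108 of the dark level. Gch1, the first enzyme of the cofactor needed for dopamine synthesis, had ratios of 2.32, 1.00 and 1.43, and another probe set gave −0.038.

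Further genes were named for their low p, their sign in every pair being part of that choice, or for the fold rule. Arhgap18 had a ratio of 1.64 ± 0.0903 (SD, n = 3; limma, adjusted p = 0.213), and its light arrays, at 8.44 to 8.71, all lay above its dark arrays, at 7.65 to 8.09. Tc2n had 2.30 ± 0.392 with dark levels of 9.47, 9.78 and 9.18 and light levels of 10.92, 10.76 and 10.30, without overlap. Myh6, a myosin heavy chain best known from heart, had 2.11 ± 0.160, its dark levels being 9.42, 8.73 and 9.29 and its light levels 10.42, 9.93 and 10.31. Cox8b, a subunit of cytochrome c oxidase, had 1.44 ± 0.249, the phospholipase Plce1 1.38 ± 0.118, the centrosomal protein Cntrl 1.49 ± 0.103 and the G protein subunit Gng11 1.34 ± 0.0986, whose other probe set gave −0.0072. Ccna2, a cyclin of dividing cells, was at a low level of 5.44 to 6.10 in darkness and 6.12 to 6.93 in light.

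Targets of the ERK kinase pathway, which growth factors and neuronal activity switch on, were mixed. Etv4, a transcription factor induced by it, was at 6.60, 8.15 and 7.73 in darkness and at 7.71, 9.64 and 9.12 in light. Its groups overlapped because replica 1 was low in both, while the ratio in the pairs was uniform at 2.53 ± 0.330 (SD, n = 3; limma, adjusted p = 0.478). Dusp6 and Dusp5, phosphatases that act back on ERK, had fitted differences of 0.66 ± 0.21 and 0.47 ± 0.15 (SE), without overlap of the groups. Etv5, a close relative of Etv4, ran the other way, at 0.710 ± 0.136 of the dark level. Over the 14 measured genes of this list, 8 were higher and 6 lower, with a median of 0.07.

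Immediate early genes were described in 32 measured members, of which 19 were higher and 13 lower in light with a median of 0.10. Egr1, a zinc finger factor, was at 13.37, 13.74 and 11.76 in darkness and at 14.27, 13.86 and 14.38 in light. The low dark level of replica 3 set the size, with ratios of 1.86, 1.09 and 6.14. Fos was at 11.65, 11.10 and 10.22 in darkness and at 11.68, 12.24 and 12.14 in light, with ratios of 1.02, 2.20 and 3.78, and another probe set gave −0.17. Fosb was instead higher mainly in pair 1, at 3.45 times the dark level against 1.10 and 1.06. Crem, a cyclic AMP responsive modulator, had ratios of 1.05, 1.43 and 1.38. No immediate early gene, taken by its brightest probe set, exceeded 1.6 times the dark level in all 3 pairs.

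Genes of the pigment epithelium and of the visual cycle were higher in 6 ZT light, and their size depended on the pair. Of 22 measured pigment cell genes 20 were higher and 2 lower, with a median of 0.47, and 8 were higher at an unadjusted p under 0.05 (background 5.56%). The median was 1.06 in pair 1, −0.01 in pair 2 and 0.46 in pair 3, and 10 of 22 genes were higher in all 3 pairs (background 17.2%). The mean level of the list was 9.77, 10.44 and 9.77 on the dark arrays and 10.77, 10.33 and 10.27 on the light arrays. Of all 15 arrays, the dark arrays of replicas 1 and 3 were the lowest for this list and the light array of replica 1 was the highest, and the 9 arrays of the other conditions ran from 10.10 to 10.48. The fitted median of the list was 0.71 without 6 ZT dark replica 2, 0.33 to 0.58 without each of the other 6 ZT arrays and 0.31 without both arrays of replica 1. These are whole-tissue samples, in which fewer cells of a type and less RNA per cell cannot be told apart.

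Of 14 measured genes of the visual cycle, some of them also on the pigment list, 12 were higher and 2 lower with a median of 0.37, and of 0.63, 0.04 and 0.40 in pairs 1 to 3. Lrat, which esterifies retinol in the visual cycle, had the lowest p of both lists. It was at 9.01, 9.36 and 8.21 in darkness and at 11.13, 10.12 and 9.63 in light, without overlap, and its ratio was 4.36, 1.69 and 2.67 in pairs 1 to 3 (limma, adjusted p = 0.440). Rgr, an opsin of the pigment epithelium and Müller glia, was at 12.13, 12.59 and 11.72 in darkness and at 13.49, 13.03 and 12.50 in light, with a ratio of 1.88 ± 0.619 (SD, n = 3). Stra6, the receptor for the retinol-binding protein, had ratios of 3.04, 1.47 and 1.49 in its brightest probe set, and another probe set gave −0.11. Rdh5, the retinol dehydrogenase that completes the chromophore, had 4.22, 1.04 and 1.76, and another probe set gave −0.061. Rpe65, the isomerase of the cycle, was at 11.76, 12.55 and 11.42 in darkness and at 12.87, 12.43 and 12.17 in light, so that in pair 2 it was slightly lower, at 0.918 times. The melanin synthesis genes Dct and Tyrp1 had ratios of 1.75 ± 0.834 and 1.73 ± 0.843, again with the largest value in pair 1. Slc26a4, an anion exchanger, had the widest spread, with log2 differences of 2.60, −0.80 and 1.73, and it was picked after its values were seen.

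Collagens and small proteoglycans showed a similar dependence on the pair without a common direction, 11 of 23 being higher and 12 lower. The list's median was 0.46 in pair 1, −0.48 in pair 2 and 0.02 in pair 3. Ogn, osteoglycin, an extracellular matrix proteoglycan, had ratios of 5.52, 0.635 and 8.08, so that pair 2 ran against the others. Col9a1, a fibril-associated collagen of the vitreous, had ratios of 4.53, 1.05 and 2.38. Col11a1 was more uniform, with 2.02, 2.26 and 1.76 in the probe set that passed the fold rule and 2.07, 2.07 and 1.52 in the brightest, while the remaining probe set gave −0.052.

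**Figure D3:**
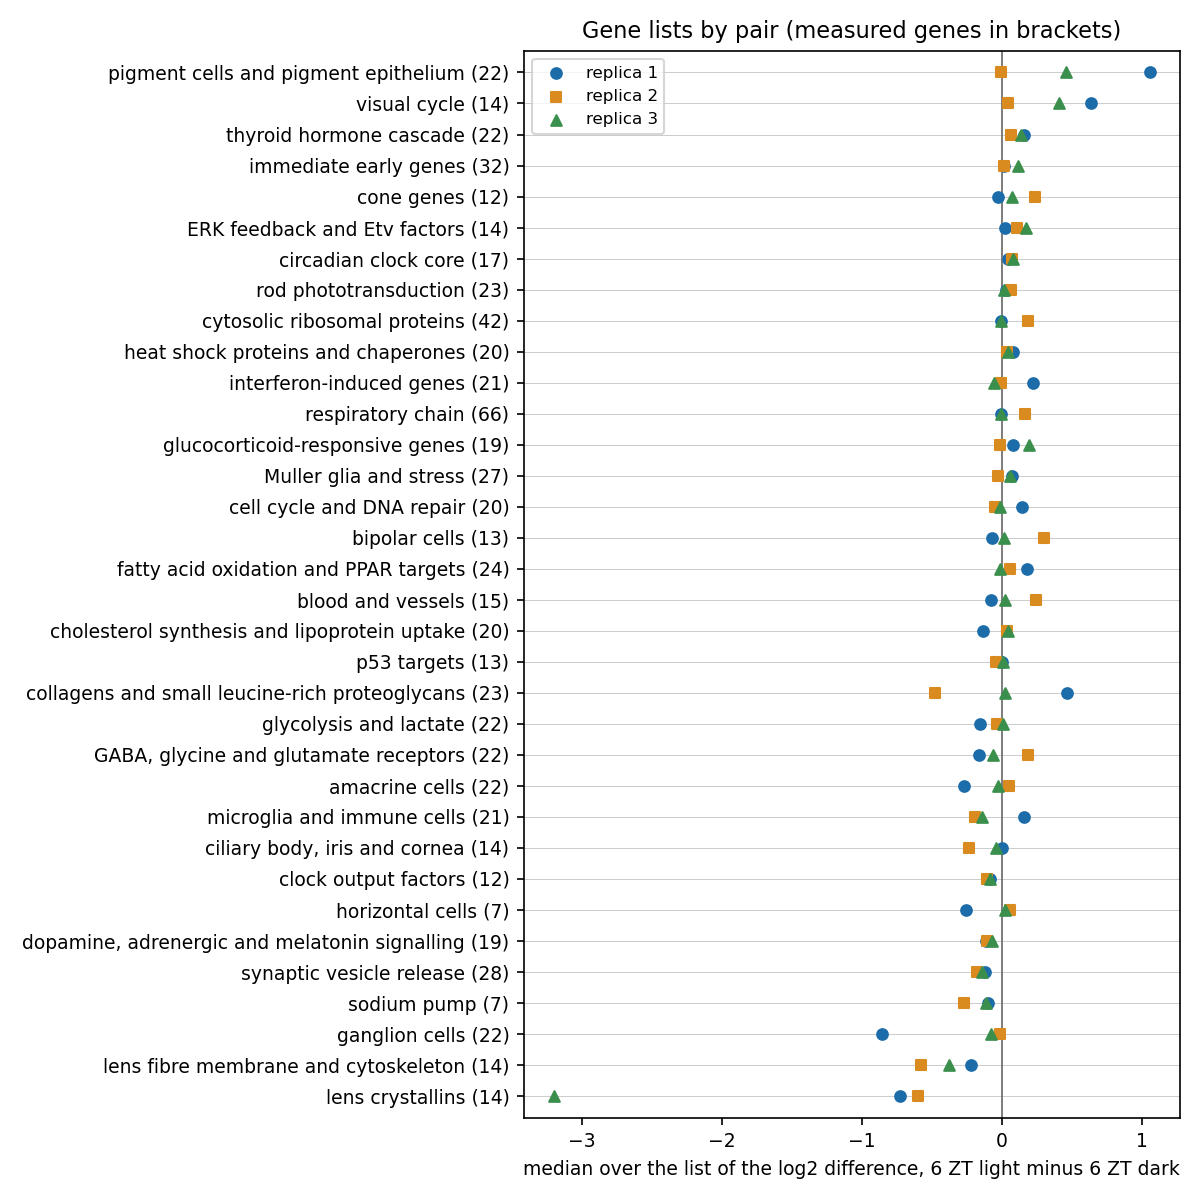
The median of light minus darkness at 6 ZT on the log2 scale (horizontal axis) is plotted for 34 gene lists, with 1 symbol per replica pair. The pigment list reaches 1.06 in pair 1 and −0.01 in pair 2, the ganglion cell list −0.86 in pair 1 only, and the crystallin list −3.20 in pair 3.

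Of the 36 gene lists, the crystallins had the lowest median in 6 ZT light. Crystallins are the soluble proteins that fill lens fibre cells, and some are also made at low level in retina. All 14 measured crystallins had a negative fitted difference, with a median of −1.57 against −0.01 over all probe sets, and 10 of 14 were lower in all 3 pairs (background 13.5%). The list's median was −0.73 in pair 1, −0.60 in pair 2 and −3.20 in pair 3. Its mean level was 12.73, 13.45 and 12.71 on the dark arrays and 11.85, 12.77 and 9.88 on the light arrays, and 6 ZT light replica 3 was the lowest of all 15 arrays. On the other 9 arrays the mean ran from 11.15 to 13.05. Without that array the fitted median was −0.48. The study's methods state that lenses were removed from the retinas used for PCR and do not say so for the arrays, and the part of lens tissue in these values was not tested.

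Of 14 measured genes of the list for lens fibre membrane and cytoskeleton, 11 were lower and 3 higher in light, with a median of −0.42. Their fitted differences ran from −2.83 to 0.24, and the list's median was −0.22, −0.58 and −0.38 in pairs 1 to 3. The members of this list named below are all among the lower ones. For several lens genes the lowest ratio was that of pair 3. Mip, the water channel of lens fibres, was at 10.87, 11.76 and 11.87 in darkness and at 8.84, 10.99 and 6.19 in light, with ratios of 0.246, 0.586 and 0.0195. Lim2, another fibre membrane protein, was at 10.76, 11.84 and 12.24 in darkness and at 9.57, 10.90 and 6.72 in light. Crybb1 was at 12.22, 13.95 and 13.35 in darkness and at 11.15, 12.62 and 8.80 in light. For Mip, Lim2 and Crybb1 the light array of replica 2 exceeded at least 1 dark array, so the groups overlapped. Cryaa had ratios of 1.01, 0.933 and 0.134, and without 6 ZT light replica 3 its fitted difference was 0.0052. Bfsp1, a filament protein of lens fibres, was more uniform. It was at 10.12, 9.76 and 10.14 in darkness and at 8.61, 8.75 and 7.99 in light, without overlap, with a ratio of 0.358 ± 0.135 (SD, n = 3) and a fitted difference of −1.56 ± 0.31 (SE; limma, adjusted p = 0.440). Hsf4, a heat shock factor that drives lens genes, had a ratio of 0.704 ± 0.0359, and Bfsp2, the partner of Bfsp1, 0.582 ± 0.249.

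The gamma crystallins that passed the fold rule were Crygs, Crygd, Crygc and Crygb. Crygs had ratios of 0.491, 0.644 and 0.0705 in pairs 1 to 3, with the lowest in pair 3, and the other 3 genes are described here. Crygd was at 12.26, 12.26 and 8.15 in darkness and at 10.04, 10.80 and 7.35 in light, Crygc at 11.65, 11.33 and 8.63 against 9.08, 9.79 and 6.98, and Crygb at 12.34, 11.84 and 9.13 against 9.93, 10.58 and 7.65. In replica 3 they were low on both arrays, so that the groups overlapped, while the dark array of replica 3 was at 14.51 for Cryba4 and 13.35 for Crybb1. Their ratios were 0.383 ± 0.180, 0.277 ± 0.0950 and 0.322 ± 0.120 (SD, n = 3), with the lowest ratio in pair 1 for all 3 genes. The study names these 3 genes among those up-regulated by light. Its reference was the dark control at 0 ZT and not the dark arrays of the same hour used here. The genes belong to 1 cluster of similar sequences, and the probe set of Crygb is of a type that can bind related transcripts, so that their signals may not be independent. Their promoters are shown because the 3 genes had such similar values. Each is the stretch from 250 bases before to 50 bases after the annotated start, from RefSeq on build GRCr8, on the minus strand of chromosome 9. Crygb lies at chr9:73957215-73957514, Crygc at chr9:73947298-73947597 for the first of its annotated starts, and Crygd at chr9:73937360-73937659. Capitals mark the longest run of letters that all 3 share, CCCTTTTGTG, and matches to TATATA, both searched on both strands.
Crygb: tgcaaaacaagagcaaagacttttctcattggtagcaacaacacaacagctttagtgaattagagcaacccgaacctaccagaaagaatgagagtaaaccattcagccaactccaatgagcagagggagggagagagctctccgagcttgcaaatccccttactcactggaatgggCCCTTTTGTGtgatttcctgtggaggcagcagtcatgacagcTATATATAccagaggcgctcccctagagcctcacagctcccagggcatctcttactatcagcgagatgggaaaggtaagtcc
Crygc: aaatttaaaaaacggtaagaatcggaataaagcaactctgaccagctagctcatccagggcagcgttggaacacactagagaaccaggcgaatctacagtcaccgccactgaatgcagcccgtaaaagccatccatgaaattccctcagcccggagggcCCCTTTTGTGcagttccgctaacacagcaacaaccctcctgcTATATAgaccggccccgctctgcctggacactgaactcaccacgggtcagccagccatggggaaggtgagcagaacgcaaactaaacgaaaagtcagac
Crygd: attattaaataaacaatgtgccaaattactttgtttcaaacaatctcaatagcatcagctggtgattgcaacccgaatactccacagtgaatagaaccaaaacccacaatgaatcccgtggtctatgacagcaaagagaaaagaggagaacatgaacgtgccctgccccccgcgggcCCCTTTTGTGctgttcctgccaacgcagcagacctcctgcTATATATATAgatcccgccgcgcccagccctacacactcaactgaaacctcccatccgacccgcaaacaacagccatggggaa
The shared run began 74 bases before the start in Crygb, 91 in Crygc and 73 in Crygd, with the TATATA match 32, 49 and 33 bases before it. Of 33469 promoters of the same length, 39 held the shared run (0.117%) and 2058 held TATATA (6.15%). Among 26 other lens genes with a promoter entry, 3 held the shared run, namely Cryga, Cryge and Crygf. The promoter of Crygs held neither the shared run nor TATATA.

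**Figure D4:**
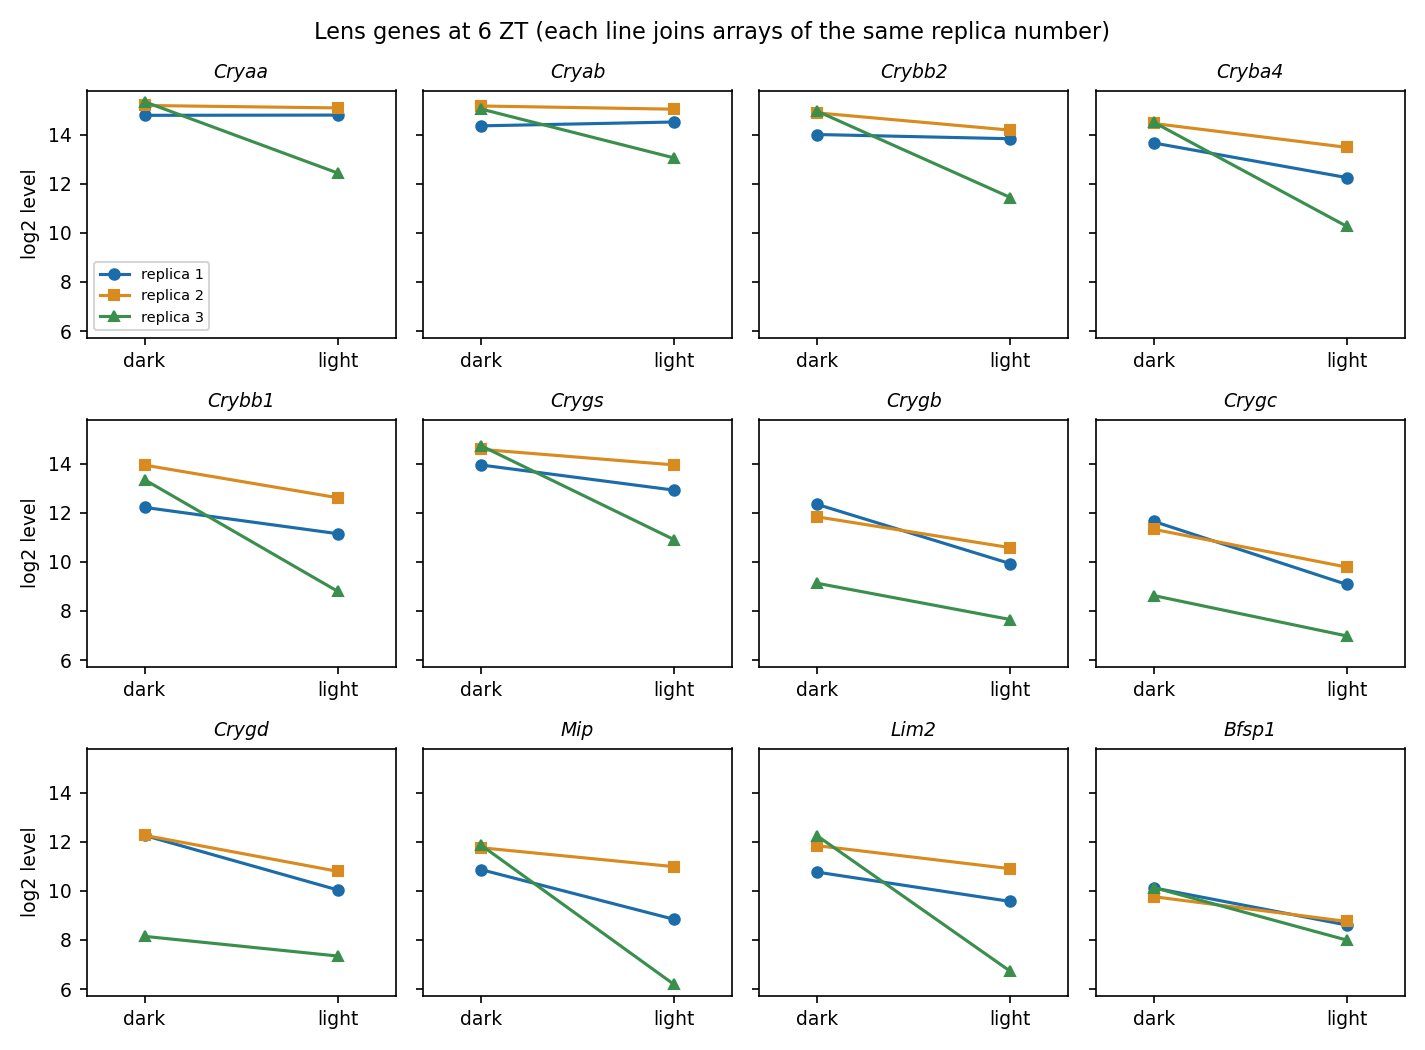
The log2 level (vertical axis) of 12 lens genes is plotted for darkness and light at 6 ZT, and each line joins the arrays of 1 replica number. The lines of replica 3 drop steeply for alpha and beta crystallins, Mip and Lim2, to 6.19 for Mip, and lie low throughout for Crygb, Crygc and Crygd.

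Genes of ganglion cells, which carry the output of the retina, were lower in light in pair 1. Of 22 measured, 21 had a negative fitted difference and 9 were lower in all 3 pairs (background 13.5%), and none was lower at an unadjusted p under 0.05 (background 2.97%). The median was −0.30 in the fit, −0.86 in pair 1, −0.02 in pair 2 and −0.08 in pair 3. The mean level of the list was 11.50, 11.41 and 11.59 in darkness and 10.66, 11.42 and 11.52 in light, so that 6 ZT light replica 1 stood apart. The median was −0.16 without that array and −0.12 without 6 ZT dark replica 1. Pou4f1, a transcription factor of these cells, was at 7.75, 8.28 and 8.41 in darkness and at 6.82, 7.90 and 8.31 in light. Rbpms, an RNA-binding protein used to label them, was at 11.40, 11.26 and 11.51 against 9.97, 11.14 and 11.27, and Slc17a6, their glutamate transporter, at 13.05, 12.85 and 12.79 against 11.81, 12.75 and 12.65. Nefh, the heavy neurofilament, had no overlap of the groups and a ratio of 0.754 ± 0.0720 (SD, n = 3). Opn4, melanopsin, the pigment of the ganglion cells that respond to light themselves, had log2 differences of 0.05, 0.00 and 0.15. Rbpms, Slc17a6 and Opn4 were picked after their values were seen. Pair 1 was also the pair in which the pigment list was highest in light, and the part of cell composition in either list was not tested.

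Genes of synaptic vesicle release had a negative median in every pair. Of 28 measured, 22 were lower and 6 higher, with a median of −0.15 in the fit and of −0.12, −0.18 and −0.15 in pairs 1 to 3. Complexins clamp and trigger vesicle fusion. Of these, Cplx1 was at 13.04, 13.25 and 13.06 in darkness and at 12.25, 12.77 and 12.79 in light, with no overlap and a ratio of 0.710 ± 0.127 (SD, n = 3). Cplx2 had ratios of 0.582, 0.875 and 0.512, and Syn1, synapsin I, had 0.632, 0.609 and 0.920. Grin1, the obligatory subunit of NMDA receptors, had 0.611, 0.621 and 0.857, but its second probe set gave 0.32, and the 22 measured genes of its list of transmitter receptors had medians of −0.17, 0.19 and −0.07 in pairs 1 to 3. Of 7 genes of the sodium pump, 6 were lower, or 5 after quantile or cyclic loess normalization, and 3 were lower in all 3 pairs (background 13.5%). All 7 were also lower in light at 3 ZT, but so were all 22 glycolysis genes, 62 of 66 respiratory chain genes and 40 of 42 ribosomal genes. The pump list's mean level was 11.15, 11.19 and 11.30 in 3 ZT dark and 10.90, 10.70 and 11.54 in 3 ZT light. Replica 3 thus ran the other way, and the 3 ZT light array of replica 2 had the largest beta-actin difference, 2.40. At 6 ZT the regulator of the pump, Fxyd7, had a ratio of 0.684 ± 0.106.

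Photoreceptor genes differed little between light and darkness. Of 23 rod phototransduction genes, 19 were higher and 4 lower with a median of 0.06, which became 0.03 with 16 higher and 7 lower after quantile normalization. Pde6a was at 13.07, 12.88 and 12.92 in darkness and at 13.13, 13.17 and 13.23 in light. Arr3, cone arrestin, was at 11.18, 10.81 and 11.40 in darkness and at 11.19, 11.61 and 11.90 in light, with ratios of 1.00, 1.74 and 1.41. Of 12 cone genes, 7 were higher and 5 lower. Lists of other tissue contents were near the median of all probe sets, with 5 of 21 microglial and immune genes higher and 16 lower at a median of −0.09, and 37 of 42 ribosomal protein genes higher at 0.06, which became 33 of 42 after quantile normalization. The ribosomal count came from pair 2, with 37 higher and 5 lower, against 13 higher and 23 lower in pair 1 and 18 higher and 23 lower in pair 3.

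The core clock was described in 17 measured genes, of which 13 were higher and 4 lower in light, with a median of 0.06 that became 0.04, with 9 higher and 8 lower, after quantile normalization. Nr1d1, a nuclear receptor that represses the activators of the clock, was at 11.35, 11.93 and 11.39 in darkness and at 11.05, 11.31 and 11.06 in light, without overlap, and the fitted difference was −0.42 ± 0.17 (SE; limma, adjusted p = 0.562). Rorb, an orphan nuclear receptor needed for rods, had ratios of 0.744, 0.889 and 0.633. Per3, a period gene, was at 8.22, 9.66 and 9.56 in darkness and at 8.58, 10.43 and 9.96 in light, with a ratio of 1.44 ± 0.239 (SD, n = 3), and another probe set gave −0.027. Of 12 clock output genes 11 were lower and 1 higher, with a median of −0.09 and with −0.09, −0.11 and −0.09 in the pairs. Among them Drd4, a dopamine receptor of photoreceptors with a daily rhythm, was at 14.47, 14.26 and 13.86 in darkness and at 14.36, 13.83 and 13.59 in light. Its ratio was 0.831 ± 0.0905.

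Metabolic genes included a few with similar ratios in the 3 pairs. Cpt1a, the carnitine palmitoyltransferase that admits fatty acids to mitochondria, was at 11.76, 11.96 and 12.17 in darkness and at 12.26, 12.50 and 12.47 in light. The groups did not overlap and the ratio was 1.37 ± 0.117 (SD, n = 3; limma, adjusted p = 0.508). Ppargc1a, a coactivator of mitochondrial genes, had 1.31 ± 0.124, and Angptl4, a secreted inhibitor of lipoprotein lipase, 1.87, 1.23 and 1.07. Over the 24 measured genes of fatty acid oxidation and PPAR targets, 13 were higher and 11 lower, with a median of 0.03.

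A further list held genes that the study names, some as up-regulated by light and others, such as Adra1b, as down-regulated. It also held Dio3, whose decrease in light the study reports from PCR. Of 47 measured genes of this list, 30 were higher and 17 lower at 6 ZT with a median of 0.13. Because the list mixes both directions, this split does not show whether the named directions were met. Genes of the list were also chosen on these arrays, so the count is not independent evidence of a direction. The split became 26 to 21 after quantile normalization and 27 to 20 after cyclic loess normalization. Baiap2l1, an actin-binding adaptor, was at 7.60, 7.91 and 8.78 in darkness and at 8.36, 8.43 and 9.21 in light, with ratios of 1.70, 1.43 and 1.34. Ccng1, cyclin G1, a p53 target, had 1.25 ± 0.0779 (SD, n = 3), and the calcium channel subunit Cacnb2 had a fitted difference of 0.26 ± 0.10 (SE). Adra1b, the alpha-1B adrenergic receptor, was at 11.35, 10.86 and 10.11 in darkness and at 10.57, 10.04 and 9.99 in light, with ratios of 0.580, 0.567 and 0.915, and Rprm, a cell cycle inhibitor, had 0.413, 0.839 and 0.862.

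Among the 12 genes of lowest p on the low side, all but the lens genes Bfsp1 and Crygd differed by less than 0.5 log2 units. Wdr31 was at 11.28, 11.22 and 11.45 in darkness and at 10.73, 10.73 and 11.07 in light, with a ratio of 0.723 ± 0.0437 (SD, n = 3). Esr2, estrogen receptor beta, was near the lower end of the scale, at 5.46 to 5.66 in darkness and 5.15 to 5.30 in light. Amd1, an enzyme of polyamine synthesis, had a ratio of 0.832 ± 0.0257, the signalling ligand Wnt7a 0.788 ± 0.107 and the nicotinic receptor subunit Chrna4 0.837 ± 0.0424. The remaining ones, Ccna1, Slc34a1, Serpina12, Pnma1 and Rnf19b, had mean ratios from 0.801 to 0.850.

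The effect of light at 6 ZT was set against the effect at 3 ZT, measured on 6 other arrays, by the difference of both differences. For no probe set did it pass an adjusted p of 0.05 (0 of 31042, 0%; limma, lowest adjusted p = 0.776), while 1286 were more positive at 6 ZT and 561 more negative at an unadjusted p under 0.05. These counts were 126 and 21 with no replica numbers in the fit, and single arrays moved 1 of them by over 1.5 times, to 689 more positive without 6 ZT light replica 2 and to 1332, 1164 and 357 more negative without 6 ZT light replica 1, 3 ZT light replica 1 and 3 ZT dark replica 2. Light differences at 3 ZT were near 0 for Slc16a10 (0.12 ± 0.12, SE), F3 (−0.06 ± 0.07) and Greb1l (0.21 ± 0.15), and the difference of differences was 0.80 ± 0.17, 0.59 ± 0.10 and 1.02 ± 0.21. Cpt1a had 0.44 ± 0.12 at 3 ZT and 0.45 ± 0.12 at 6 ZT, and Baiap2l1 had 0.58 ± 0.13 and 0.57 ± 0.13. For Dio2 the light difference was 1.33 ± 0.38 at 3 ZT and 0.67 ± 0.38 at 6 ZT, and the difference of −0.66 ± 0.54 was close to its error. The crystallins had a median of 0.39 at 3 ZT and −1.57 at 6 ZT, and the light difference of Crygd was 1.02 ± 0.41 at 3 ZT and −1.50 ± 0.41 at 6 ZT.

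**Figure D5:**
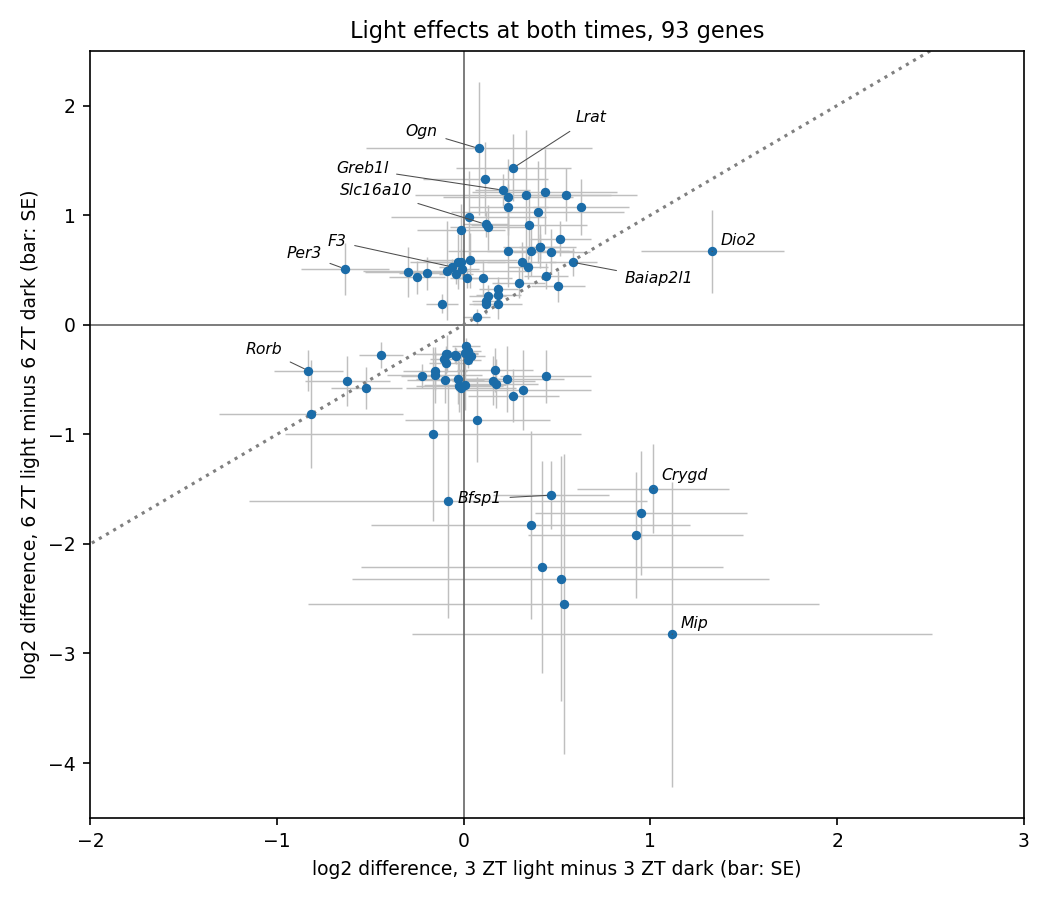
The fitted log2 difference of light against darkness at 6 ZT (vertical axis) is plotted against that at 3 ZT (horizontal axis) for 93 named genes with bars for the SE, and the dotted line marks equal values. Baiap2l1 lies on the line, Dio2 lies to its right at 1.33, and Crygd and Mip lie at the lower right, positive at 3 ZT and negative at 6 ZT.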

How the data were processed

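Retinal RNA was labelled with biotin from 6 µg of total RNA per the labels and hybridised to 15 Affymetrix rat arrays. The authors made the deposited log2 levels with Robust Multi-array Averaging, and no scanner files were used here. Probe sets were named from the platform annotation, with 20832 holding a single symbol, 436 several and 9831 none; 14168 of 14218 Entrez identifiers matched RefSeq. Levels were fitted with limma 3.58.1 in R 4.3.3 with condition and replica number as terms over all 15 arrays, with Benjamini-Hochberg adjustment over 31042 probe sets. The fit was also run on simulated data with known light effects and independent noise of the same size on every array. That simulation held no outlying arrays, so it does not show how the fit behaves where single arrays stand apart. The replica number was used as a block because the study takes ratios within a replica number. Light and dark arrays of the same number also deviated together (r = 0.456 to 0.797, against −0.518 to −0.114 for different numbers). Arrays of the same number also had similar median levels and many exactly equal values, so r by itself does not show that the samples were paired. The deviations were from the mean of each group, which by itself tends to make r negative for different numbers where same-number r is positive. Ratios to the dark array of the same number used the limits 1.6 and 0.7. The labels do not say that replicas are separate animals, so p-values measure the spread between these arrays only. Intensities limit precision through the number of arrays.

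Named genes were the 12 of lowest p in each direction with the same sign in all pairs, up to 12 passing the fold limits, those the study names from its arrays, and up to 6 per list, with all lens, clock and immediate early genes eligible; others are said to be chosen later. The comparison and its gene lists were chosen with earlier results of these data known. The closing section gives the alternatives: no block, other normalizations, array weights, dim probe sets left out, other fold limits, other probe sets (added after the data were seen) and arrays left out in turn.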

Additional observations from a re-analysis of the deposited data

Results flagged for a closer look

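The comparisons at 6 ZT and at 3 ZT gave light differences of opposite sign in every pair for 6 of the genes followed. The difference of both log2 differences was tested in limma and passed the adjusted threshold for none of them (adjusted p = 0.776 for each). For the lens genes Bfsp1, Crygb and Crybb1 it was −2.02 ± 0.44, −2.67 ± 0.80 and −2.84 ± 1.58 (SE), with light differences at 3 ZT of 0.47, 0.95 and 0.52. Per3 had 1.15 ± 0.33, from −0.64 at 3 ZT and 0.51 at 6 ZT. Cplx2 had −0.91 ± 0.34, from 0.26 and −0.65, and Crebbp had 0.31 ± 0.12, from −0.12 and 0.19. These flags came from the sign of 3 pairs at each time, and they were given no explanation. No outlier test was run within groups of 3 arrays.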

How the results depend on the processing

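No setting other than 2 gave an adjusted limma call: array quality weights gave 1511 higher and 800 lower probe sets, and leaving out 1 array at a time gave 0 to 3 higher and 0 lower, the 3 without 6 ZT light replica 1. With no replicate block, that is without the pairing by replica number, there were 0 higher and 0 lower calls, and the fold rule, set against the mean of the 3 dark arrays, gave 24 over 1.6 and 23 under 0.7. The pairing thus changed no adjusted call, but it did change the counts at an unadjusted p under 0.05 in limma. Without it these went from 1726 higher and 921 lower to 303 and 38. For the difference between the light effects at 6 ZT and 3 ZT they went from 1286 and 561 to 126 and 21. The count of 17 over 1.6 became 11 without dim probe sets and 8 when gene symbols were counted once. With limits of 2 and 0.5 it became 4, and the count of 12 under 0.7 also became 4. With 2 pairs in place of 3 the counts were 33 to 111 over and 33 to 77 under. The difference between the light effects at 6 ZT and 3 ZT gave 0 calls in the settings run for it, that is with no block and without each of the 12 arrays at 3 ZT and 6 ZT.

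Of 95 genes followed over up to 23 settings, 93 kept their direction in every planned setting. Leaving out an array of 0 ZT or 3 ZT does not change the fitted difference, so those settings could not turn a direction. Part of the genes were also chosen for the same sign in all 3 pairs, so the count is no measure of robustness. Without 1 array, Dio3 ran from −0.025 to 1.03 and Cryaa from −1.66 to 0.0052. Opposite in sign to the brightest probe set were other probe sets of Gng11 (−0.0072), Col11a1 (−0.052), Klf9 (−0.33 and −0.15), Fos (−0.17), Per3 (−0.027), Stra6 (−0.11), Rdh5 (−0.061), Gch1 (−0.038), Grin1 (0.32) and Crebbp (−0.31 and −0.25), a check chosen after seeing the data. The causes were not tested. With 3 arrays a group, the number of arrays is the limit of precision, and no depth or detection call was used here.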
